A study of Rattus norvegicus with 12 samples.

Results

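Gene expression in the rat kidney 4 weeks after birth (Wk4, 3 arrays) was compared with that at embryonic day 18 (E18, 4 arrays), which took 7 of the 12 arrays of the series. The other arrays held kidneys at embryonic day 13 (E13, n = 3) and tissue recombined from in vitro-formed UBs and MM and cultured for 6 days (n = 2). The E13 arrays were used to set the step from E18 to Wk4 against the step before it. Both groups also entered the shared estimate of spread, the constant added before the logarithm and the choice of 1 probe set per gene. Every array was hybridised with biotin-labelled RNA copied from 6 µg of total RNA, and the embryonic kidneys were taken straight into processing. The groups were chosen by these labels alone, and all probe sets except the array's controls were compared. No genotype, treatment, strain, sex or number of animals per sample is given in the labels, nor whether replicates came from separate animals or litters, and the p-values therefore reflect only how these samples scatter, which could be technical scatter.

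At E18 the rat kidney still makes nephrons. A cap of progenitor cells around each ureteric bud tip feeds new nephrons, which form vesicles and then segments, while the bud branches into collecting ducts and a stroma fills the space between. In the weeks after birth nephron formation ends, and the organ takes over filtration, reabsorption of glucose, phosphate, amino acids and salt, secretion of drugs and organic ions, concentration of the urine and renal metabolism.

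Each array gave a signal for 31042 probe sets, sets of short probes that each report a transcript, on the linear scale the authors deposited. Levels below are these signals, as the mean ± SD over arrays. Differences are Wk4 minus E18 on the log2(signal + 271) scale, with the standard error of limma's fit, and they understate the change of dim genes. A gene was called, and is said to have risen or fallen, where limma's Benjamini-Hochberg adjusted p over all probe sets was under 0.05 and the difference was at least 3-fold, which is 1.58 on that scale. The 7 arrays had median signals of 818 to 948. Pearson's r of the log2 values lay between 0.965 and 0.984 for pairs of E18 arrays, between 0.970 and 0.973 for pairs of Wk4 arrays and between 0.828 and 0.847 for an E18 with a Wk4 array. The endocytic receptor gene Lrp2, the podocyte gene Podxl and the loop gene Slc12a1, all markers of kidney, were above the 40th percentile of the array on all 7 arrays. The distal tubule marker Pvalb, the adrenal genes Cyp11b1 and Star and the lymphocyte gene Cd79b were at or below the 40th percentile on all 7 arrays. Another adrenal gene, Cyp11a1, was at or below it on 2 of the E18 arrays and on 0 of the Wk4 arrays.

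The arrays differed in genes linked to sex. Xist, transcribed from the inactive X chromosome of females, gave 55.9, 52818, 32.1 and 19 on the E18 arrays and 23.5, 29.7 and 55.8 on the Wk4 arrays. Eif2s3y, a gene of the Y chromosome, gave 12750.5, 4.94, 13467 and 19792 on the E18 arrays and 6053, 7871 and 6151 on the Wk4 arrays. Thus E18 replicate 2 stood apart from the other 3 E18 arrays in both genes, and the 3 Wk4 arrays were like those 3. Sex is not given in the labels. These genes were looked at after the data were seen. Without E18 replicate 2 the number of called probe sets was 2589, against 2530 with it, and 2473 were called in both.

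Of the 31042 probe sets, 2530 (8.15%) were called, 1302 (4.19%) higher at Wk4 and 1228 (3.96%) lower. With 1 probe set for each of 14217 named genes, 846 genes (5.95%) rose and 796 (5.6%) fell, and the median difference over all genes was -0.07. The counts in the gene lists below are to be read beside these shares, 5.95% and 5.6%. At any fold, 21.7% of genes were higher and 30.4% lower with an adjusted p under 0.05. The rises reached further. A difference of at least 10-fold was found for 222 of the genes that rose and 58 of those that fell, and one of at least 30-fold for 55 and 5. At E18, 165 of the 846 genes that rose (19.5%) lay at or below the 40th percentile on all 4 arrays. At Wk4, 203 of the 796 that fell (25.5%) did so on all 3. In tissue RNA, fewer cells of a type and less RNA per cell cannot be told apart, and since the arrays share the same trimmed mean, any change in the amount of RNA in each cell would be hidden.

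**Figure D1:**
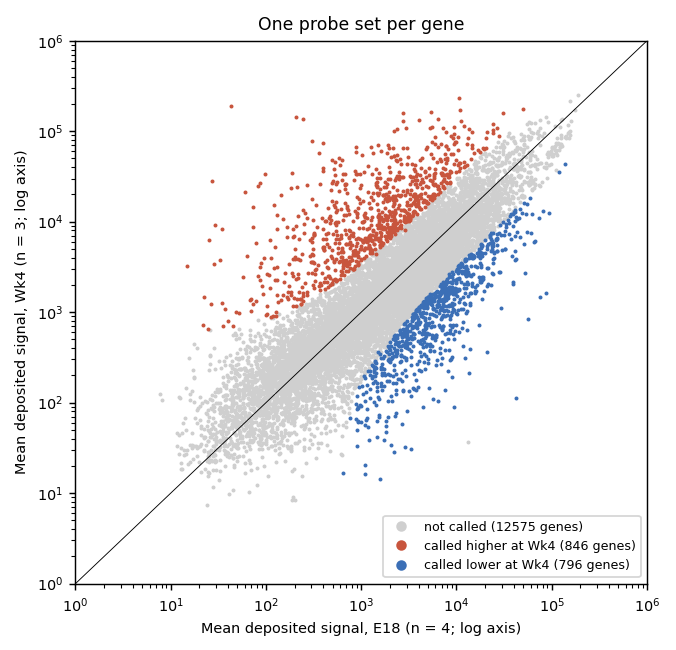
Mean deposited signal of each gene at E18 (horizontal, n = 4) against Wk4 (vertical, n = 3), both on log axes, with the line of equal signal; red points are the 846 genes called higher at Wk4, blue points the 796 called lower and grey points the rest. The red points reach further from the line than the blue, most of all on the left, where the E18 signal is low.

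Kap, an androgen-regulated gene of the proximal tubule, had the largest difference. It gave 48.7, 50.9, 51.3 and 22.9 on the E18 arrays and 217003, 185113 and 174971 on the Wk4 arrays, a difference of 9.26 ± 0.15 (SE) with an adjusted p of 1.32e-13. The groups lay far apart, and E18 replicate 4 was the lowest array. Umod, which encodes uromodulin, the main protein of normal urine made by the thick ascending limb, gave 270.2, 346, 111 and 252 on the E18 arrays and 146813, 132126 and 131959 on the Wk4 arrays. Its difference was 8.08 ± 0.23 (SE), a change of 270-fold on this scale. Egf, the gene of epidermal growth factor and made in the distal tubule, gave 565, 392, 286 and 353 on the E18 arrays and 73017, 77792 and 71872 on the Wk4 arrays, with a difference of 6.81 ± 0.20 (SE). Kap and Umod were at or below the 40th percentile on all 4 E18 arrays and Egf on 3 of them, while on every Wk4 array all of them lay far above it. The remaining genes among the 15 with the largest rise were the sulfotransferases Sult1c2a (8.32) and Sult1c2 (6.54), the P450 Cyp4a8 (7.09), Hsd11b1 (6.62), which reactivates glucocorticoids, Dhrs7l1 (6.45), the organic anion carriers Slco1a6 (6.26) and Slco1a3 (6.02), the histamine methyltransferase Hnmt (6.25), Spink1l (6.18), Cmbl (6.03), the invariant chain of MHC class II Cd74 (5.92) and the amino acid carrier Slc7a12 (5.87). Of these 15 genes, 11 were at or below the 40th percentile on all 4 E18 arrays. Sult1c2 and Sult1c2a, and the Slco1a genes, are near copies of each other, so their signals may be shared. A dim probe set of Hnmt gave 0.13 and was not called.

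Among the 15 genes with the largest fall, Hbe1, a globin of embryonic red cells, came first. It gave 59906, 21106, 39885 and 47485 on the E18 arrays and 99, 168 and 72.4 on the Wk4 arrays, a difference of -6.70 ± 0.27 (SE). Igf2, the fetal growth factor, gave 92489, 97756, 83190.0 and 71126 on the E18 arrays and 2396, 1061 and 1383 on the Wk4 arrays, with a difference of -5.57 ± 0.20 (SE) and an adjusted p of 8.31e-11. H19, a non-coding RNA transcribed next to Igf2, gave 76182, 85757, 78807 and 58509.9 on the E18 arrays and 2294, 1351 and 734 on the Wk4 arrays, a difference of -5.53 ± 0.24 (SE). In all of these the lowest E18 array was above the highest Wk4 array by a wide gap. The imprinted gene Mest differed by -5.64. The others were Shisa3 (-5.08), Tmsb15b2 (-4.87), the microfibril gene Fbn2 (-4.75), Cdca7 (-4.50), Capn6 (-4.44), the mitotic kinases Ttk (-4.38) and Bub1b (-4.22), the matrix gene Postn (-4.17), the growth factor gene Mdk (-4.15), the angiotensin type 2 receptor Agtr2 (-4.15) and the embryonic claudin Cldn6 (-4.14). Of these 15, 9 were at or below the 40th percentile on all 3 Wk4 arrays. A further probe set of Agtr2 gave -1.49, in the same direction but under the threshold, and 3 further probe sets of Igf2 were dim and gave differences between -0.20 and 0.01.

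**Figure D2:**
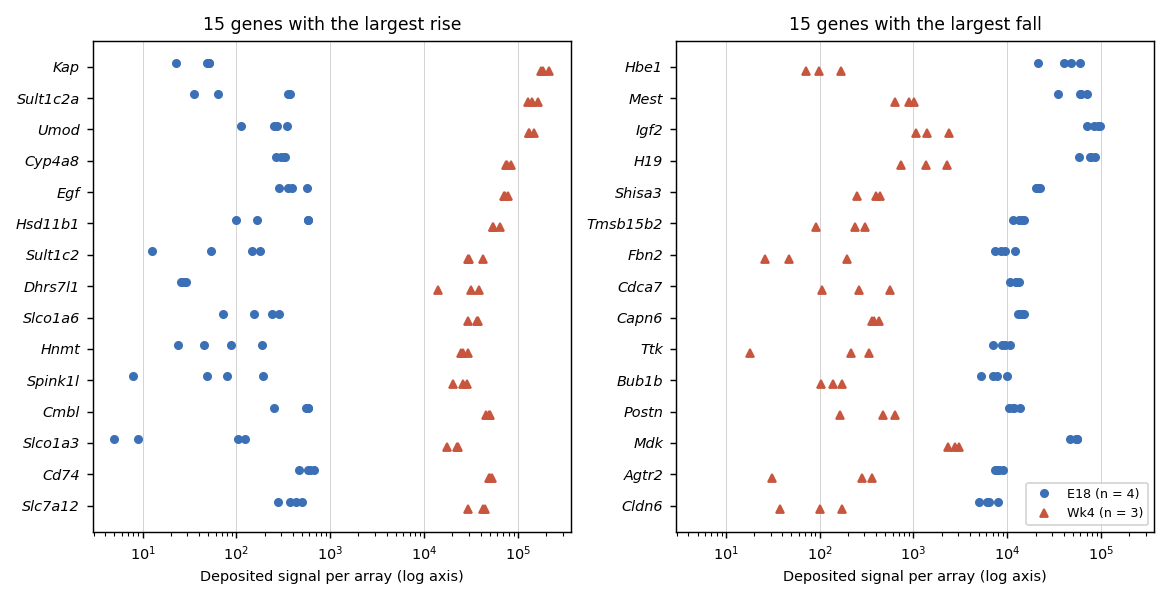
Deposited signal on a log axis of the 15 genes with the largest rise (left) and the largest fall (right); each blue circle is an E18 array (n = 4) and each red triangle a Wk4 array (n = 3). In every gene shown the highest array of the lower group lies below the lowest array of the higher group.

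The proximal tubule reabsorbs most of the filtered load and secretes organic ions, and its genes rose far more often than they fell. In 5 lists that cover it, 103 of 148 different genes rose (69.6%, against 5.95% of all genes) and 1 fell. The lists were chosen with earlier results of these data known, so this share is a description and no test. For sodium, glucose and phosphate transport 20 of 25 measured members rose and 0 fell, with a median difference of 3.3. The main phosphate carrier Slc34a1 gave 8147, 4205, 6614 and 6350.0 on the E18 arrays and 156154, 128491 and 128050.0 on the Wk4 arrays, a difference of 4.41 ± 0.25 (SE) with an adjusted p of 5.48e-09. The sodium-glucose carrier Slc5a2, target of the gliflozin drugs, gave 1210.3, 1031, 965 and 985 on the E18 arrays and 18251, 14156 and 18609 on the Wk4 arrays, a difference of 3.71 ± 0.18 (SE). In both genes each Wk4 array was far above each E18 array. Slc13a3, a dicarboxylate carrier, rose by 4.90, the water channel Aqp1 by 4.77 and the lactate carrier Slc5a12 by 4.71. The widely used phosphate carriers Slc20a1 (-0.23) and Slc20a2 (-0.27) and the glucose carrier Slc5a1 (0.87) were not called.

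Organic ion and drug transport gave 19 of 30 members higher and 0 lower (median 2.57). Slc22a6, the carrier that takes up organic anions such as p-aminohippurate from blood, gave 1247, 572, 736 and 847 on the E18 arrays and 41493, 33285 and 34222 on the Wk4 arrays, a difference of 5.06 ± 0.23 (SE). Its relative Slc22a8 gave 1313, 989, 956 and 803 on the E18 arrays and 56507, 52542 and 52711 on the Wk4 arrays, a difference of 5.41 ± 0.18 (SE). The cation carrier Slc22a2 differed by 5.79, the urate carrier Slc22a12 by 5.47 and the efflux carrier Slc47a1 by 4.32. The efflux pump Abcc1 (0.09) and the widely expressed Slc22a3 (0.26) were not called. Slc22a24 (4.09) and Slc22a25 (5.09) rose too, but are near copies, so their values are uncertain.

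Amino acid carriers were split. Of 29, 13 rose (44.8%) and 1 fell (3.45%, against 5.6% of all genes), with a median of 1.2. The number that fell was 2 without E18 replicate 3 or Wk4 replicate 1. Those that rose included the carriers of the brush border, with Slc7a9 at 4.01, its partner Slc3a1 at 3.92 and Cltrn, which brings such carriers to the membrane, at 5.12. Carriers found in most cells differed in direction. Slc3a2, the shared heavy chain of several carriers, rose by 1.96. Slc38a1, a glutamine carrier, fell by 1.88, and Slc7a6 (-1.56), the arginine carrier Slc7a1 (-1.06) and the leucine carrier Slc7a5 (-0.90) were lower by less than the threshold of 3-fold.

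The brush border is the microvillous surface where these carriers sit. Of 25 of its enzymes and endocytic receptors 20 rose and 0 fell (median 2.54). Alkaline phosphatase, Alpl, rose by 4.74 and the peptidase genes Xpnpep2 and Mep1b by 4.63 and 4.37. The endocytic receptors for filtered protein were already present at E18. Lrp2 gave 16712 ± 1800.0 at E18 (SD, n = 4) and 61603 ± 4281 at Wk4 (SD, n = 3), a difference of 1.87 ± 0.23 (SE), and Cubn gave 3492 ± 392 at E18 (SD, n = 4) and 31327 ± 1822 at Wk4 (SD, n = 3), a difference of 3.07 ± 0.22 (SE).

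Gluconeogenesis and amino acid breakdown had the highest median of all 47 lists, 3.52. Of 39 members 31 rose, 0 fell, and all 39 were higher at any fold with an adjusted p under 0.05. Pck1, which controls renal glucose output, gave 2947, 2114, 2534 and 3326 on the E18 arrays and 142219, 133312 and 114144 on the Wk4 arrays, a difference of 5.45 ± 0.17 (SE) with an adjusted p of 2.88e-11. Miox, the first enzyme of inositol breakdown and nearly restricted to kidney, gave 3789, 1777, 3016 and 2344 on the E18 arrays and 168210.0, 154600.0 and 155294 on the Wk4 arrays, a difference of 5.78 ± 0.21 (SE). Acy3 (5.87), the tyrosine-breakdown enzyme Hpd (5.34) and the fructose kinase Khk (4.80) rose as well. The smallest difference was that of Arg2, 0.47.

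Promoters of these genes were read for CAAAGTC, found in sites of HNF4A, whose role in this tubule is given with the receptors. It is shown in Slc34a1, chosen after the matches were seen, as the main phosphate carrier with a match near its start. The sequence is the 150 bases before the annotated start in RefSeq, build GRCr8, written 5′ to 3′ along the gene, with the match, which lies on the other strand, in capitals.
Slc34a1 promoter (chr17:9238984-9239133, minus strand): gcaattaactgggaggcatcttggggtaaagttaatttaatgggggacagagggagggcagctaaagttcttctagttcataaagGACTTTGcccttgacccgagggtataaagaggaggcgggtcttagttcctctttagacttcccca
Slc34a1 held CAAAGTC 65 bases before the start. Over the 250 bases before the start, on either strand, CAAAGTC lay in 8 of the 91 promoters matched to the 103 proximal genes that rose (8.79%), against 3.95% of all 27457 promoters. It lay in 4 of 39 promoters of the mitosis list (10.3%) as well, a list in which no gene rose. A match describes letters, not a bound site.

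In mitochondrial and peroxisomal fatty acid oxidation 13 of 36 members rose (36.1%, against 5.95% of all genes) and 0 fell (median 1.38). At any fold 33 were higher with an adjusted p under 0.05. Acadm, the medium-chain acyl-CoA dehydrogenase, gave 9684, 9409, 9418 and 9241 on the E18 arrays and 73009, 68666 and 75083 on the Wk4 arrays, a difference of 2.90 ± 0.09 (SE). The medium-chain ligases Acsm2 (5.43) and Acsm3 (4.83) and the peroxisomal Ehhadh (4.35) had the largest rises. For the respiratory chain and citrate cycle 1 of 39 members passed the threshold of 3-fold, the nuclear receptor Esrra (1.72), which drives mitochondrial genes. Yet 36 of the 39 were higher at any fold with an adjusted p under 0.05, against 21.7% of all genes, with a median difference of 0.79. The citrate synthase gene Cs differed by 0.10 and the succinate dehydrogenase subunit Sdha by 1.30. Tfam, which packages and copies mitochondrial DNA, was the only member lower, with 13762 ± 1030.0 at E18 (SD, n = 4) and 4649 ± 542 at Wk4 (SD, n = 3), a difference of -1.51, under the threshold.

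Of the enzymes that handle drugs, lipids and reactive oxygen, more rose than fell. Among 36 cytochrome P450 genes 9 rose (25%, against 5.95% of all genes) and 2 fell (5.56%, against 5.6%), with a median of 0.5. In that list 12 were at or below the 40th percentile on all 7 arrays. The fatty acid hydroxylases Cyp4a8 (7.09) and Cyp4a1 (5.77), Cyp2d2 (5.62), the arachidonic acid epoxygenase Cyp2c23 (4.29) and Cyp2e1 (4.17) rose. Members of the Cyp4a and Cyp2d groups are similar in sequence and may share signal. Those that fell were Cyp26b1 (-2.36), which degrades retinoic acid, and Cyp1b1 (-1.72). Of 50 conjugation and antioxidant enzymes 25 rose (50%) and 1 fell (2%), with a median of 1.56. Gpx3, the plasma glutathione peroxidase secreted by the proximal tubule, gave 11530.0, 14069, 10373 and 6958 on the E18 arrays and 261065, 229104 and 203070.0 on the Wk4 arrays, a difference of 4.43 ± 0.20 (SE). Gclc, the rate-limiting enzyme of glutathione synthesis, differed by 4.98, the glutathione transferase Gsta1 by 5.34 and Gstm5 by -2.32, the only member that fell.

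Beyond the proximal tubule, 4 lists held 78 different genes of the distal nephron and collecting duct. Of these 37 rose (47.4%, against 5.95% of all genes) and 0 fell. In the thick ascending limb 11 of 17 rose (median 2.02). The salt carrier of that segment, Slc12a1, was already high at E18, with 18218, 13510.5, 16944 and 15292 on the E18 arrays and 43011, 47053 and 35044 on the Wk4 arrays. Its difference was 1.37 ± 0.15 (SE), under the threshold, whereas the potassium channel Kcnj1 that serves it gave 978, 1352, 838 and 1251 on the E18 arrays and 11554, 11416 and 11231 on the Wk4 arrays and differed by 3.10 ± 0.19 (SE). The claudin Cldn10 rose by 3.74. In the distal convoluted tubule with calcium and magnesium transport 7 of 21 rose (median 0.94), among them the channel Kcnj16 (4.17), the sodium pump subunit Fxyd2 (3.26), the calcium-binding Calb1 (3.13) and the thiazide-sensitive carrier Slc12a3 (1.65). The calcium channel genes Trpv5 (-0.11) and Trpv6 (-0.10) were not called.

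In the principal cells of the collecting duct 11 of 27 rose (median 1.32). Aqp2, the water channel under vasopressin control, gave 8106, 1619.7, 6967 and 6619.7 on the E18 arrays and 30929.8, 34045 and 30065 on the Wk4 arrays, a difference of 2.59 ± 0.38 (SE) with an adjusted p of 5.93e-05. E18 replicate 2 was well below the other E18 arrays, and all E18 arrays were below all Wk4 arrays. The urea carrier Slc14a2 (3.12) and the aldosterone-induced kinase Sgk1 (3.02) rose more. For Slc14a2, 4 further probe sets gave differences between 0.33 and 1.28 and were not called. The early ureteric transcription factor Gata3 (-1.08) and the keratin gene Krt18 (-0.93) were lower, under the threshold. Intercalated cells secrete acid or base, and 8 of their 14 genes rose (median 1.84). The proton pump subunit Atp6v1g3 gave 970.4, 2113, 1811 and 1400.2 on the E18 arrays and 26681, 34365 and 29912 on the Wk4 arrays, a difference of 4.09 ± 0.25 (SE). Atp6v0a4 differed by 3.40 and the chloride-bicarbonate exchanger Slc26a4, known as pendrin, by 2.90. Foxi1, the transcription factor of these cells, differed by 1.30, under the threshold.

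**Figure D3:**
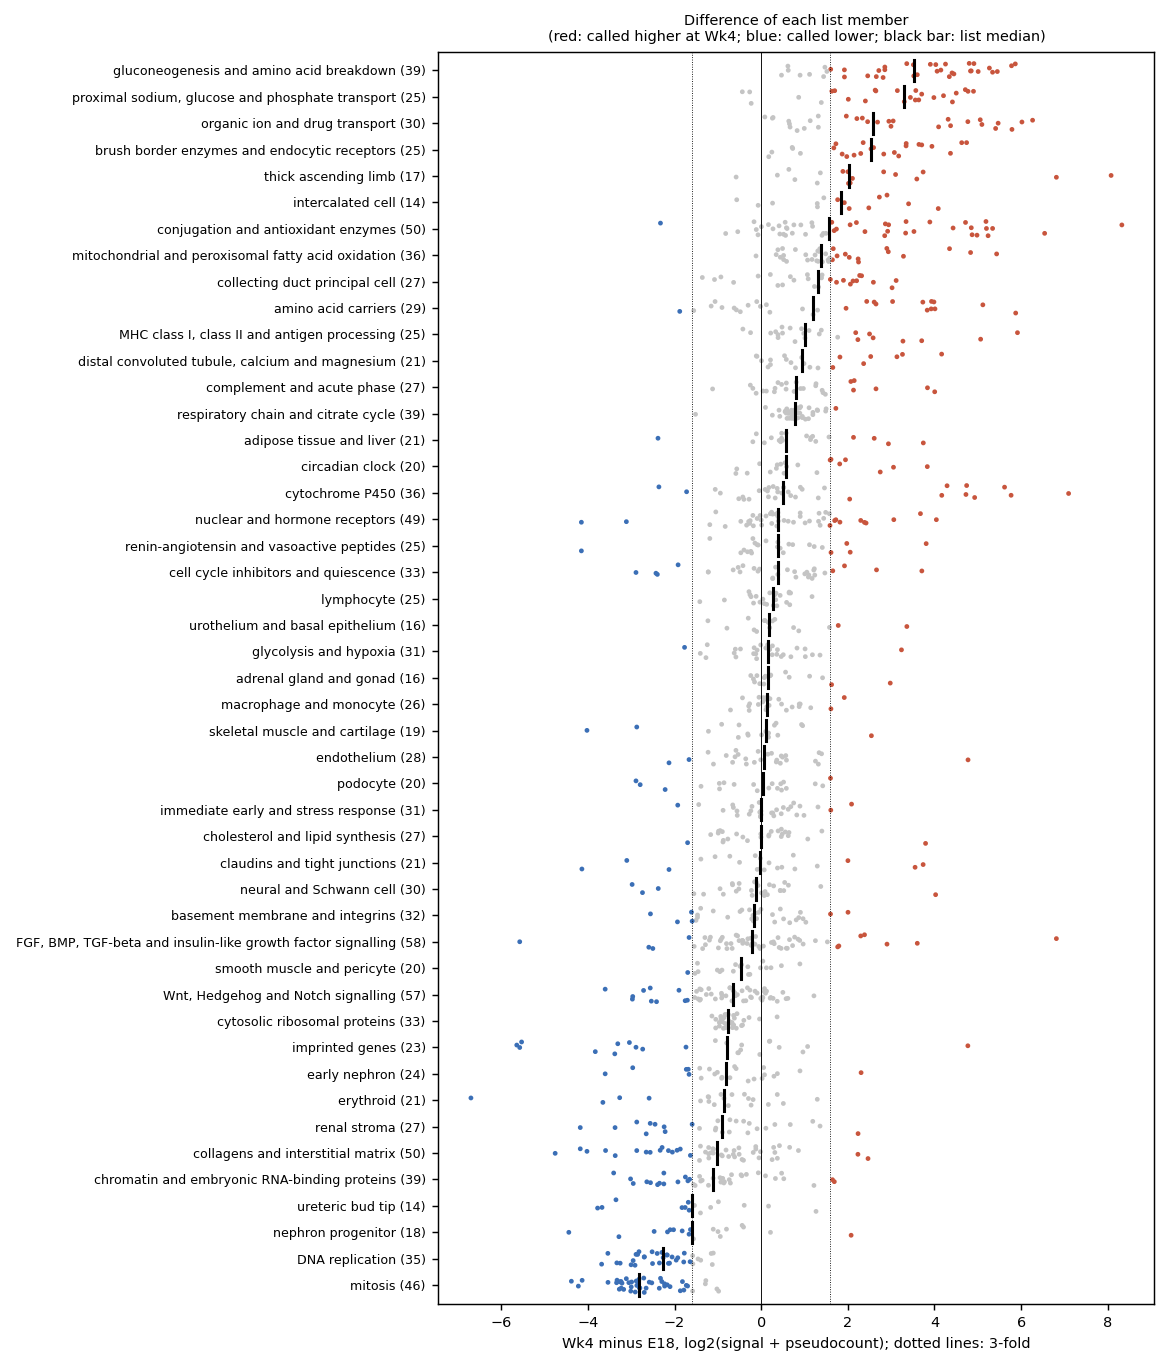
Difference Wk4 minus E18 on the log2 scale for every measured member of the 47 gene lists, ordered by the list median (black bar), with the number of members in brackets; red points rose, blue points fell, grey points were not called, and dotted lines mark 3-fold. Medians run from 3.52 for gluconeogenesis and amino acid breakdown to -2.81 for mitosis.

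Claudins, which set what passes between cells, exchanged members. Of 21 claudins and tight junction genes 3 rose and 3 fell, with a median of -0.02. Each share was 14.3%, against 5.95% and 5.6% of all genes. Cldn6, typical of embryonic epithelium, gave 7919.9, 6325, 6034 and 5041 on the E18 arrays and 101, 37.8 and 174 on the Wk4 arrays, a difference of -4.14 ± 0.24 (SE). Cldn2, which makes the proximal tubule leaky to cations, gave 1958, 1677, 1968 and 1696 on the E18 arrays and 24371, 23135 and 25287 on the Wk4 arrays, a difference of 3.55 ± 0.18 (SE). Cldn11 (-3.10) and the endothelial Cldn5 (-2.13) also fell, and Cldn10 and Cldn16 (2.0) also rose.

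Podocytes wrap the glomerular capillary and make its filter. Of 20 podocyte genes 1 rose (5%, against 5.95% of all genes) and 3 fell (15%, against 5.6%), with a median of 0.04. The slit diaphragm gene Nphs1 gave 2082, 3285, 2294 and 2361 on the E18 arrays and 1307, 1284 and 2027 on the Wk4 arrays, a difference of -0.62 ± 0.28 (SE) with an adjusted p of 0.0909, and the groups were separate but close. The genes that fell were Wt1 (-2.79), Tcf21 (-2.22) and the cell cycle inhibitor Cdkn1c (-2.89), which progenitors or stroma of the embryonic kidney also express. The member that rose was Col4a4 (1.60), a collagen chain of the mature glomerular basement membrane, and no member rose when E18 replicate 3 or when Wk4 replicate 2 or 3 was left out.

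In 3 lists of the nephron-forming zone, calls were mostly lower, though not all members were called. Of 18 nephron progenitor genes 9 fell (50%, against 5.6% of all genes) and 1 rose (5.56%, against 5.95%), with a median of -1.6. Eya1, a cofactor of the progenitor factor Six2, gave 6488, 5763, 5729 and 7071 on the E18 arrays and 1263, 1152 and 1141 on the Wk4 arrays, a difference of -2.16 ± 0.19 (SE) with an adjusted p of 5.1e-07. Capn6 (-4.44), Uncx (-3.28) and Meox1 (-2.47) fell furthest, and the member that rose was Crym (2.08), a thyroid hormone-binding protein. Of 14 genes of the ureteric bud tip 7 fell (50%) and 0 rose (median -1.6). Moxd1 (-3.77) had the largest fall. Ret, the receptor for GDNF through which the bud branches, gave 2914, 2165, 3164 and 3150.0 on the E18 arrays and 44.1, 22.1 and 31.1 on the Wk4 arrays, a difference of -3.35 ± 0.16 (SE). Another probe set of Ret was called lower and a further one gave -0.97 and was not called. Its downstream factor Etv4 fell by 3.67, while Gfra1, the co-receptor of Ret, differed by -1.54 and Wnt11 by -1.40, both under the threshold. Of 24 genes of the early nephron 5 fell (20.8%) and 1 rose (4.17%), with a median of -0.81. Wnt4, which turns mesenchyme into epithelium, gave 7691, 5493, 7631 and 5989.9 on the E18 arrays and 67.7, 691 and 297 on the Wk4 arrays, a difference of -3.60 ± 0.28 (SE), and the Notch target Hey1 differed by -2.96. The member that rose was Papss2 (2.31), an enzyme of sulfate activation. In this list the tubule factor Pax8 differed by 0.29 and Irx1 by 0.06.

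Of 27 genes of the renal stroma 9 fell (33.3%, against 5.6% of all genes) and 1 rose (3.7%, against 5.95%), with a median of -0.9. Aldh1a2, which makes retinoic acid, gave 40546, 44277, 44798 and 34177 on the E18 arrays and 4475, 3178 and 3519.9 on the Wk4 arrays, a difference of -3.37 ± 0.16 (SE). Postn (-4.17) and the stromal factor Meis1 (-2.87) fell as well. Mgp, an inhibitor of calcification, rose, with 14599 ± 1498 at E18 (SD, n = 4) and 69610.2 ± 4508 at Wk4 (SD, n = 3) and a difference of 2.24. The receptor genes Pdgfra (-0.58) and Pdgfrb (-0.31) were not called.

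Calls of signalling genes were lower in the Wnt, Hedgehog and Notch list. Of its 57 genes 10 fell (17.5%, against 5.6% of all genes) and 0 rose (median -0.64). The ligand Wnt4 and the Notch target Hey1 are given above. In the Hedgehog pathway the signal transducer Smo (-2.97) and the target and effector Gli1 (-2.71) fell. Gli1 gave 2693, 2359, 2369 and 1947 on the E18 arrays and 136, 116 and 126 on the Wk4 arrays, well apart. The Wnt target genes Lef1 (-2.54), Tcf7 (-2.56) and Axin2 (-1.75) and the receptor Fzd2 (-2.42) fell, whereas the ligand genes Wnt5a (-0.09) and Shh (0.07) were not called. Among 58 genes of FGF, BMP, TGF-beta and insulin-like growth factor signalling 7 rose (12.1%, against 5.95% of all genes) and 4 fell (6.9%, against 5.6%). The median was -0.22, and the share that fell was near that of all genes. Besides Egf, the ligand Fgf1 rose by 3.60 (another probe set of it gave 1.578, just under the threshold), the growth hormone receptor Ghr by 2.30, the binding protein Igfbp1 by 2.90 and the BMP antagonist Grem1 by 2.38. Besides Igf2, the receptor Fgfr2 (-2.59), the binding protein Igfbp2 (-2.50) and the ligand Fgf8 (-1.66) fell. Igf1, the growth factor of postnatal life, differed by 1.25, under the threshold.

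Of 49 nuclear and hormone receptors 10 rose (20.4%, against 5.95% of all genes) and 2 fell (4.08%, against 5.6%), with a median of 0.39. Hnf4a, a factor required for proximal tubule maturation, gave 5431, 3606, 5469.9 and 4775 on the E18 arrays and 61741, 61799 and 68813 on the Wk4 arrays, a difference of 3.68 ± 0.14 (SE). Nr1h4, the bile acid receptor, gave 113, 78.2, 87.6 and 379 on the E18 arrays and 6968, 5307 and 7958 on the Wk4 arrays, a difference of 4.04 ± 0.25 (SE), with E18 replicate 4 above the other E18 arrays. The oxysterol receptor Nr1h3 (3.06), the thyroid hormone receptor Thrb (2.42), the prolactin receptor Prlr (2.38) and the vitamin D receptor Vdr (1.82) rose. Those that fell were Agtr2 (-4.15) and Nr2f1 (-3.11), a factor of mesenchyme. The glucocorticoid receptor Nr3c1 (0.39) and the mineralocorticoid receptor Nr3c2 (0.21) were not called.

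Cell division was the other large fall. In the DNA replication and mitosis lists together, 69 of 81 genes fell (85.2%, against 5.6% of all genes) and 0 rose, and the other 12 were all lower at any fold with an adjusted p under 0.05. These lists too were chosen with earlier results of these data known, so the share is a description and no test. The median difference was -2.26 for 35 replication genes, of which 28 fell, and -2.81 for 46 mitosis genes, of which 41 fell. Mki67, the Ki-67 antigen of dividing cells, gave 18084, 16599.9, 19041 and 23876 on the E18 arrays and 2383, 1646 and 1141 on the Wk4 arrays, a difference of -3.34 ± 0.20 (SE) with an adjusted p of 8.57e-09. The cyclin Ccna2 gave 15960.1, 13302, 18378 and 21067 on the E18 arrays and 806, 749 and 589.9 on the Wk4 arrays, a difference of -4.13 ± 0.20 (SE). Both kept a signal above the 40th percentile on all Wk4 arrays. The replication genes Uhrf1 (-3.68), Cdt1 (-3.54), which licenses origins, and the helicase subunit Mcm6 (-2.95) fell, and the replication members that missed the threshold included Tyms (-1.46) and Tk1 (-1.40).

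Mitotic genes are known to share promoter elements, a CCAAT box bound by NF-Y and a cell cycle homology region, TTTGAA or TTCGAA. Promoters of the kinase gene Cdk1 and of Cdc20, an activator of the anaphase-promoting complex, are shown because both hold the pair close to the start, and were chosen after the matches were seen. The layout is that of the promoter above, with CCAAT and both forms of the region on either strand in capitals.
Cdk1 promoter (chr20:19265143-19265292, plus strand): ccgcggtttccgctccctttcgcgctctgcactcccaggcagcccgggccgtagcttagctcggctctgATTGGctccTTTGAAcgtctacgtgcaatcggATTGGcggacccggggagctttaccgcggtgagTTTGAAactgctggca
Cdc20 promoter (chr5:137255800-137255949, minus strand): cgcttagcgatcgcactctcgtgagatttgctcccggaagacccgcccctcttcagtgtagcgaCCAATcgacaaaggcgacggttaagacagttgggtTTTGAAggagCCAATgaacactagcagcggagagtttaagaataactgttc
Cdk1, which gave 17901, 16713, 18768 and 20400.0 on the E18 arrays and 3329, 2429.6 and 1554 on the Wk4 arrays, a difference of -2.84 ± 0.18 (SE), held CCAAT 81 and 49 bases and TTTGAA 72 and 16 bases before the start. In Cdc20, with a difference of -3.11, CCAAT lay 86 and 41 bases and TTTGAA 51 bases before it. Over 250 bases CCAAT was found in 31 of the 39 matched promoters of the 46 mitosis genes (79.5%), in 18 of 30 replication promoters (60%) and in 34.3% of all 27457. TTTGAA was found in 19 of the 39 (48.7%) and TTCGAA in 4 (10.3%), against 1 (3.33%) and 3 (10%) of the 30 replication promoters and 16.0% and 1.5% of all promoters. The pair of CCAAT with either region was in 21 mitosis promoters (53.8%), 3 replication promoters (10%) and 6.22% of all. GCGGGAA, a form of the E2F site, was in 7 replication promoters (23.3%), 2 mitosis promoters (5.13%) and 3.58% of all. The share over all promoters was not matched for base composition.

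Of 33 cell cycle inhibitors and quiescence genes 4 rose and 4 fell, with a median of 0.38. Each share was 12.1%, against 5.95% and 5.6% of all genes. Klf9, a glucocorticoid- and thyroid hormone-induced repressor, gave 2285, 2832, 2450.5 and 2344 on the E18 arrays and 31745, 37088 and 38158 on the Wk4 arrays, a difference of 3.71 ± 0.12 (SE). Klf15 (2.66), Tsc22d3 (1.92) and the inhibitor Cdkn1a (1.65) rose, and Cdkn1c (-2.89) and Ccnd2 (-2.43) were among those that fell. For Klf9 and Klf15 another probe set of each was not called. Among 39 chromatin genes and embryonic RNA-binding proteins 13 fell (33.3%) and 2 rose (5.13%, near the share of all genes), with a median of -1.11. The RNA-binding Igf2bp3 (-3.40, and -1.55 and not called in another probe set), the methyltransferases Ezh2 (-3.01), of histone H3, and Dnmt1 (-2.39), of DNA, and the helicase Hells (-2.95) fell. Another probe set of Ezh2 gave 0.44 and was not called. Those that rose were Cbx7 (1.69) and Hdac11 (1.65), and 1 of them was called without E18 replicate 1, 3 or 4 or without Wk4 replicate 3.

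Imprinted genes are expressed from the copy of 1 parent and often tied to fetal growth. They gave 10 of 23 lower (43.5%, against 5.6% of all genes) and 1 higher (4.35%, against 5.95%), with a median of -0.8. After Mest, Igf2 and H19 came Nnat (-3.83), Grb10 (-3.38), Ndn (-3.31) and Plagl1 (-3.04). Grb10, an inhibitor of insulin signalling, gave 43759, 40549, 43546 and 42328 on the E18 arrays and 4129, 3468 and 3973 on the Wk4 arrays, and its arrays scattered little. The imprinted genes Meg3 (-0.52) and Snrpn (0.19) were not called. The member that rose was the organic ion carrier Slc22a18 (4.77). Of 33 cytosolic ribosomal protein genes 0 passed the threshold of 3-fold, and 28 were lower at any fold with an adjusted p under 0.05, against 30.4% of all genes. Their median was -0.76. Rpl4 gave 94334 ± 5881 at E18 (SD, n = 4) and 42703 ± 2024 at Wk4 (SD, n = 3), a difference of -1.14 ± 0.10 (SE), and Rps3 gave 112647 ± 2333 at E18 (SD, n = 4) and 54539.6 ± 6530.0 at Wk4 (SD, n = 3), a difference of -1.05 ± 0.12 (SE).

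The collagens and interstitial matrix were lower in part, with 15 of 50 down (30%, against 5.6% of all genes) and 2 up (4%, against 5.95%). Their median was -1.01. Fbn2 (-4.75), Postn, the cartilage collagen Col2a1 (-4.02) and the proteoglycan Vcan (-3.59) led, and fibronectin, Fn1, gave 48365 ± 1759 at E18 (SD, n = 4) and 12588 ± 2840.0 at Wk4 (SD, n = 3), a difference of -1.94. For Col2a1, 2 further probe sets gave -0.76 and -0.91 and were not called. The main fibrillar collagens Col1a1 (-1.42) and Col3a1 (-1.16) were lower by less than 3-fold. The protease inhibitor Timp3 (2.47) and osteopontin, Spp1 (2.23), rose. In the basement membrane and integrin list 4 of 32 fell (12.5%) and 2 rose (6.25%, near the share of all genes), with a median of -0.16. The laminin chains Lama4 (-2.56), Lama1 (-1.93) and Lamc1 (-1.61) and the integrin Itga9 (-1.59) fell. The integrin Itgb6 (2.0) and Col4a4 rose. The count that fell was 2 without Wk4 replicate 2, and that which rose was 1 without E18 replicate 1 or 3 or Wk4 replicate 2 or 3. Another probe set of Lama4 gave -0.60 and was not called.

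Few vessel genes were called, at shares not far from those of all genes. Of 28 endothelial genes 1 rose (3.57%, against 5.95% of all genes) and 2 fell (7.14%, against 5.6%), with a median of 0.07. The one that rose was Aqp1, which the proximal tubule also expresses. Cldn5 (-2.13) and the lymphatic gene Lyve1 (-1.67) fell, while Pecam1 (0.24) and Kdr (-0.16) were not called. Of 20 smooth muscle and pericyte genes 1 fell (5%, against 5.6% of all genes) and 0 rose (median -0.47). It was Tpm2 (-1.70). It was not called without E18 replicate 2, at -1.56, or without Wk4 replicate 3, at -1.49, and the list held 3 called genes without E18 replicate 4 or Wk4 replicate 1. A further probe set of Tpm2 gave 0.51.

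In lists of immune genes, calls were found in antigen presentation and complement genes, and in macrophage genes at a share near that of all genes. All of these calls were higher at Wk4. Of 25 genes of MHC class I, class II and antigen processing 8 rose (32%) and 0 fell (median 1.01). Cd74, the class II invariant chain, gave 670.0, 604, 576 and 466 on the E18 arrays and 50612, 48849.7 and 53077 on the Wk4 arrays, a difference of 5.92 ± 0.18 (SE). The class II genes RT1-Da (5.07), RT1-Db1 (3.71) and RT1-Ba (3.27) and the class I light chain B2m (2.23) rose. The RT1 genes are similar to each other, so their values are uncertain. In the macrophage and monocyte list 2 of 26 rose (7.69%, against 5.95% of all genes) and 0 fell (median 0.14). They were lysozyme, Lyz2 (1.92), and the protease Ctss (1.61), and the latter was at 1.55 and not called without Wk4 replicate 3. The defining macrophage genes Csf1r (0.20), Cd68 (0.13) and C1qa (0.41) were not called. The summed signal of the 26 genes lay between 33207 and 39433 on the E18 arrays and between 65083 and 72627 on the Wk4 arrays. Much of its rise was that of Lyz2, with 7254 ± 1278 at E18 (SD, n = 4) and 27897 ± 1704 at Wk4 (SD, n = 3). The part of this sum in the rise of the MHC genes was not tested. In the lymphocyte list 0 of 25 were called, 10 were at or below the 40th percentile on all 7 arrays, and the median was 0.28. Its largest differences were those of Cd52 (-1.42) and Ccl5 (1.17), and at any fold 2 members were higher and 2 lower with an adjusted p under 0.05. In the complement and acute phase list 6 of 27 rose (22.2%) and 0 fell (median 0.81). They included Pigr (4.00), which carries IgA across epithelium, C5 (3.84) and Apoh (2.65).

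Erythroid genes gave 4 of 21 lower (19%, against 5.6% of all genes) and 0 higher (median -0.86). They were the embryonic globins Hbe1, Hbg1 (-3.27) and Hbz (-2.59) and the hemoglobin chaperone Ahsp (-3.65). The adult globin Hbb gave 149723 ± 5038 at E18 (SD, n = 4) and 94567 ± 15910.0 at Wk4 (SD, n = 3), a difference of -0.67 ± 0.11 (SE), and the heme synthesis enzyme Alas2 differed by -1.22, both under the threshold. Globin genes share sequence, and signal of a relative may reach a probe set.

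Lists for tissues beside the kidney also held calls, some at shares near those of all genes, 5.95% higher and 5.6% lower. Of 30 neural and Schwann cell genes 1 rose (3.33%) and 3 fell (10%), with a median of -0.13. Uchl1 (-2.98), the neurofilament Nefm (-2.74) and Ngfr (-2.38) fell, and Mapt, the gene of tau, rose. It gave 1339.7, 1383, 1381 and 1725 on the E18 arrays and 30005, 26543 and 26870.5 on the Wk4 arrays, a difference of 4.03 ± 0.29 (SE), and 2 other probe sets of Mapt rose too. In the adrenal gland and gonad list 2 of 16 rose (12.5%) and 0 fell (median 0.15). Those that rose were Mrap (2.98) and Hsd3b1 (1.62), and Hsd3b1 was at 1.43 and not called without Wk4 replicate 2. Cyp11a1, needed for all steroid synthesis, was 527 ± 66.3 at E18 (SD, n = 4) and 906 ± 72.2 at Wk4 (SD, n = 3). The summed signal of these 16 genes lay between 9450.0 and 10968 on the E18 arrays and between 22654 and 26788 on the Wk4 arrays. Most of this sum was Fdx1, which was not called and gave 6420, 5791, 6768 and 5663 on the E18 arrays and 15868, 16552 and 18267 on the Wk4 arrays. In the adipose tissue and liver list 4 of 21 rose (19%) and 1 fell (4.76%), with a median of 0.58. The fat genes Cidec (3.74) and Ucp1 (2.94) and the plasma protein genes Apoc3 (2.61) and Fga (2.13) rose, and alpha-fetoprotein, Afp (-2.38), fell. Ucp1, which marks brown fat, gave 78, 152, 31.3 and 83.6 on the E18 arrays and 1168, 6684 and 1728 on the Wk4 arrays, so Wk4 replicate 2 was far above the others. The fat gene Adipoq gave 112 ± 66.6 at E18 (SD, n = 4) and 871 ± 279.6 at Wk4 (SD, n = 3). Albumin, Alb, gave 4827, 686 and 611 on the Wk4 arrays, highest in replicate 1. The summed signal of the 21 genes lay between 10751 and 13298 on the E18 arrays and between 25914 and 38906 on the Wk4 arrays, and its part in other results was not tested. Of 19 skeletal muscle and cartilage genes 1 rose, Matn1 (2.54), and 2 fell, Col2a1 and Col9a1 (-2.87), with a median of 0.11. The summed signal of these 19 genes lay between 17772 and 21733 on the E18 arrays and between 8673 and 9997 on the Wk4 arrays. Much of its fall was that of Col2a1, with 8683 ± 1342 at E18 (SD, n = 4) and 301 ± 200 at Wk4 (SD, n = 3). The part of this sum in the fall of matrix genes was not tested. Of 16 urothelium and basal epithelium genes Psca (3.36) and Krt7 (1.78) rose (12.5%) and 0 fell (median 0.18). The uroplakins Upk1b (-0.16) and Upk3a (0.09) were not called. The summed signal of the 16 urothelium and basal epithelium genes lay between 9902 and 11674 on the E18 arrays and between 26644 and 28979 on the Wk4 arrays. Much of its rise was that of Krt7, with 4742 ± 281 at E18 (SD, n = 4) and 16915 ± 323 at Wk4 (SD, n = 3). The part of these tissues in other results was not tested.

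Among lists of general cell function, the circadian clock gave 7 of 20 higher (35%, against 5.95% of all genes) and 0 lower (median 0.57). The output factor Hlf (3.83), the receptor Rora (3.05) and the deubiquitinase Usp2 (2.75) rose most, and the core gene Bmal1 gave 724, 903, 854 and 772 on the E18 arrays and 3045, 3069 and 2998 on the Wk4 arrays, a difference of 1.61 ± 0.17 (SE). The time of day of dissection is not given in the labels, and a probe set each of Hlf and Rora was not called. Glycolysis and hypoxia gave 1 of 31 higher and 1 lower (median 0.15), 3.23% each and below the 5.95% and 5.6% of all genes. The stress-induced Ndrg1 (3.24) rose, and the neuronal enolase Eno2 (-1.77) fell. Eno2 was not called without E18 replicate 2, at -1.52. The lactate dehydrogenase genes Ldha (-1.41) and Ldhb (1.36) were under the threshold. Cholesterol and lipid synthesis gave 1 of 27 higher and 1 lower (median -0.01), 3.7% each and also below the shares of all genes. Apoe (3.79) rose, and the squalene epoxidase Sqle (-1.70) fell. A dim probe set of Apoe gave 0.00. Immediate early and stress genes gave 2 of 31 higher (6.45%) and 1 lower (3.23%), near or below the shares of all genes, with a median of 0. Zfp36 (2.09) and Hspa1a (1.61) rose, and Myc (-1.93) fell. Hspa1a was not called when E18 replicate 1, 3 or 4 or Wk4 replicate 2 was left out, at 1.51 to 1.56, and 2 genes fell without E18 replicate 4. In the renin-angiotensin and vasoactive peptide list 4 of 25 rose (16%) and 1 fell (4%), with a median of 0.38. Agtr2 gave 7452, 7828, 8195 and 9039 on the E18 arrays and 31.3, 281 and 362 on the Wk4 arrays, a difference of -4.15 ± 0.21 (SE), while the adult type 1 receptor Agtr1a gave 5733 ± 568 at E18 (SD, n = 4) and 12857 ± 2579 at Wk4 (SD, n = 3), a difference of 1.11, under the threshold. The kallikrein Klk1 (3.81) and the prostaglandin receptor Ptger3 (2.06) rose.

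The E13 arrays allow the step from E18 to Wk4 to be set against the step from E13 to E18, as the difference between the 2 steps. A negative value marks a gene that rose less, or fell more, after E18 than before. Of the 31042 probe sets 2391 (7.7%) were called in this contrast, and of the genes 591 (4.16%) had a higher later step and 932 (6.56%) a lower one. The E18 arrays enter both steps, so an error in them moves the contrast by more than it moves either step. With each array centred on its median, the median of the contrast moved from -0.01 to 0.13 and the called probe sets from 995 higher and 1396 lower to 1188 higher and 1151 lower, so the balance of directions depends on the scaling. The stages also differed in the genes linked to sex. All 3 E13 arrays had Xist, at 29496, 65269.5 and 63032, together with Eif2s3y, at 8536, 9190.0 and 7926, whereas the Wk4 arrays and 3 of the 4 E18 arrays were low in Xist. The part of this in the contrast was not tested.

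Of the 148 proximal genes 74 had a higher later step and 4 a lower one, where all genes gave 4.16% and 6.56%. Slc22a8 gave 682, 544 and 310.1 at E13, all below its E18 values given above, and had a contrast of 4.68 ± 0.30 (SE). Hnf4a gave 46.5, 40.5 and 19.8 at E13, with a contrast of -0.36 ± 0.24 (SE) and an adjusted p of 0.349. Lrp2 gave 927, 1217 and 791 at E13, and its contrast of -1.90 ± 0.39 (SE) was negative. In the loop, Umod had a contrast of 7.87 and Slc12a1, at 187, 168 and 67.2 on the E13 arrays, of -3.94 ± 0.26 (SE). The glucose carrier Slc2a2, at 32, 93.3 and 31.3 on the E13 arrays and 3805 ± 569.7 at E18 (SD, n = 4) and 12291 ± 1099 at Wk4 (SD, n = 3), had a contrast of -2.02.

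Lists of forming nephrons and matrix held many negative contrasts. Over all genes 6.56% had a lower later step and 4.16% a higher one. Of the 24 early nephron genes 16 had a lower later step and 0 a higher one, while 5 fell from E18 to Wk4. Wnt4 was 3373, 3078 and 2265 at E13 and had a contrast of -4.74 ± 0.47 (SE). Of 50 genes of the collagen and interstitial matrix list 26 had a lower later step. Tnc, a matrix glycoprotein of growing tissue, gave 1337, 557 and 1053 at E13 and 6727, 14616, 8107 and 8235 on the E18 arrays and 1569.5, 1016 and 1085 on the Wk4 arrays, a contrast of -5.60 ± 0.46 (SE) with an adjusted p of 1.52e-06. Col1a1 had a contrast of -3.28 and Col14a1 of -5.63. Further lower contrasts were found for 8 of 21 claudins and tight junction genes, 7 of 14 bud tip genes, 10 of 32 basement membrane genes and 6 of 20 podocyte genes, among them Nphs1 (-3.67), which gave 23.9, 21.8 and 153 at E13. The 5 lowest called genes were Tcp11 (-5.98), the decoy receptor Il13ra2 (-5.96), Mest (-5.84), Afp (-5.75) and H19 (-5.74). Tcp11, known from the testis, gave 136, 126 and 768 at E13 and 3575, 3593, 3483 and 3359 on the E18 arrays and 236, 99.2 and 97 on the Wk4 arrays. Il13ra2 gave 339.8, 515 and 512 at E13 and 5778, 4972, 5664 and 6515 on the E18 arrays and 708, 350.0 and 569 on the Wk4 arrays. Both were thus low, high and low again over the 3 stages.

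Genes of cell division had E13 values near those at E18. Of 46 mitosis genes 39 and of 35 replication genes 24 had a lower later step, against 6.56% of all genes. Mki67 gave 16282, 24453 and 19979 at E13, close to its E18 values, and had a contrast of -3.28 ± 0.34 (SE). Igf2 gave 106633, 86168 and 96165 at E13, also near its E18 level, with a contrast of -5.41 ± 0.33 (SE). The globin Hbg1 gave 92106, 83833 and 114903 at E13 and 2506, 4502, 3372 and 4060.4 at E18, while Hbe1 gave 111445, 127747 and 141464 at E13 and had a contrast of -5.02 ± 0.46 (SE). The 5 highest contrasts belonged to Kap (9.29), Sult1c2a (7.97), Umod, Cyp4a8 (6.98) and Egf (6.82), each of which was at or below the 40th percentile on all E13 arrays.

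**Figure D4:**
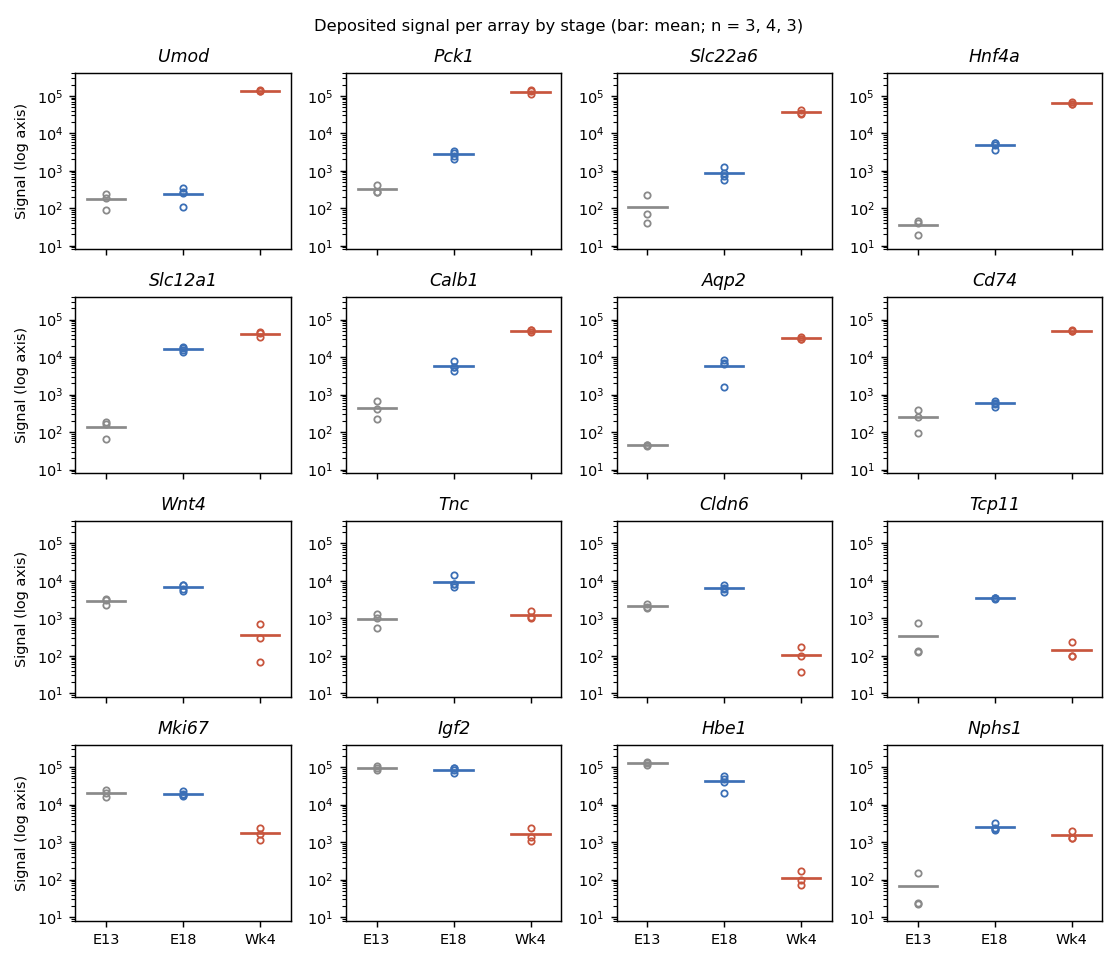
Deposited signal on a log axis of 16 genes at E13 (grey, n = 3), E18 (blue, n = 4) and Wk4 (red, n = 3); circles are arrays and bars are means. Umod and Cd74 are far below their Wk4 level at both embryonic stages, Slc12a1 and Nphs1 have most of their gain between E13 and E18, Wnt4, Tnc, Cldn6 and Tcp11 are highest at E18, and Mki67 and Igf2 are as high at E13 as at E18.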

How the data were processed

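Affymetrix arrays of rat kidney RNA gave 1 intensity per probe set and array, which the authors deposited on a linear scale, 1 column per array. No columns were merged here, and whether a sample pooled several animals is not given in the labels. GCOS, Affymetrix software, is named in the submitters' processing notes. Its version and algorithm were not given in the sources used here. All columns have the same trimmed mean. Detection calls were not used here, so a signal at or below an array's 40th percentile is called low or dim, which is no test of absence. The precision is limited by the number of arrays, 4 at E18 and 3 at Wk4.

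The 57 control probe sets were left out. The log2 of signal plus 271, the 25th percentile of all values, was fitted for 31042 probe sets and all 4 groups with limma 3.58.1 in R 4.3.3 (lmFit, contrasts, eBayes with a trend, 8 residual degrees of freedom, no filter on low values), with Benjamini-Hochberg adjustment over all probe sets. The same fit gave the contrast between the steps. Of the probe sets 20826 had 1 gene symbol in the platform annotation, 436 had several and 9780 none. Each of 14217 genes was represented by its probe set with the highest mean over all arrays, a choice that did not use the groups, and 4525 genes had several. The fit was tested on simulated data. Promoters, 27457 in all, came from RefSeq (GRCr8), matched by gene symbol or ID. The counts of 1 further motif are not reported here.

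The genes named by rule were the 15 highest and 15 lowest called genes whose groups did not overlap, in each list the 3 called members with the largest difference (or the 2 largest where none was called), and the 5 highest and lowest in the contrast between steps, 133 genes in all. Other members serve as examples. The lists and these rules were chosen with earlier results of these data known. The 47 lists hold 1286 different measured genes, and 85 genes are in more than 1 list. The alternatives were no or 4 times the pseudocount, quantile or median scaling, filters at the 40th and 60th percentile, each array left out, the replicate number as a block, other variance models, other call rules and, for genes with several probe sets, their mean.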

Additional observations from a re-analysis of the deposited data

Results flagged for a closer look

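In 15 of the 133 named genes (11.3%), 1 E18 array lay far from the other 3, judged by its gap to the nearest array as a share of the range of the 4. Chance alone gives about 1 gene in 20, and the genes share arrays, so they are not independent. Of the 15 genes, E18 replicate 4 was the outlying array in 8, replicate 2 in 5 and replicate 3 in 2. No explanation was tested.

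E18 replicate 4 was low in Kap, with a share of 0.91 (22.9 against 48.7 to 51.3), in Uncx with 0.9 (6603 against 14230.0 to 15480.0), in Col2a1 with 0.941 (6674 against 9283 to 9477) and in Krt7 with 0.834 (4325 against 4823 to 4928). It was high in Nr1h4 with 0.846 (379 against 78.2 to 113), in Hells with 0.99 (4537 against 4185 to 4188), in Mapt with 0.876 (1725 against 1340.0 to 1383) and in Hsd3b1 with 0.835 (52.2 against 12.8 to 19). E18 replicate 2, the array that also stood apart in Xist and Eif2s3y, was low in Cmbl with 0.934 (254.5 against 553.7 to 580.4), in Cltrn with 0.864 (809 against 2093 to 2404) and in Aqp2 with 0.869 (1620.0 against 6620.0 to 8106). It was high in Hspa1a with 0.911 (2377 against 1366 to 1438) and in Cd52 with 0.944 (1524 against 1054 to 1077). E18 replicate 3 was high in Alpl with 0.835 (664 against 49.4 to 111) and in Cidec with 0.957 (204 against 12.5 to 18.9). In Hells, Krt7 and Mapt the outlying signal differed from the others by a small part of its level, while in Aqp2, Cltrn, Alpl and Cidec it differed several-fold. Cidec, Kap, Nr1h4 and Hsd3b1 were dim on all 4 E18 arrays and Alpl on 3 of them.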

How the results depend on the processing

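Counts of called probe sets for Wk4 against E18 moved by over 1.5 times with the pseudocount and the fold threshold. Without a pseudocount 4533 were called (2134 higher, 2399 lower), which held all 2530 of the main setting. With 4 times the pseudocount 1421 were called, 871 higher and 550 lower, and at 2-fold 5827 (2539 higher, 3288 lower), so the share higher was 61.3% and 43.6% against 51.5%. In the contrast between steps 1250 were called with 4 times the pseudocount (629 higher, 621 lower) and 4849 at 2-fold (1884 higher, 2965 lower). Leaving out 1 array at a time gave 2517 to 2702 for Wk4 against E18 (1293 to 1341 higher, 1213 to 1361 lower) and 2294 to 2583 for the contrast (959 to 1061 higher, 1335 to 1522 lower). The other settings stayed within 1.5 times, and 3-fold alone, with no p, gave 2533. Replicate numbers did not pair the arrays: deviations of E18 and Wk4 arrays correlated between -0.03 and 0.03, and not every array correlated best with its own number. With the replicate block 2539 were called, 2409 of them shared, and 2567 in the contrast. No named difference reversed in any setting, and 22 of 133 changed call in at least 1, 15 of them with 4 times the pseudocount. As the mean of their probe sets, Igf2 (-1.45), Lama4 (-1.58), Slc14a2 (1.14) and Tpm2 (-0.59) were not called. The size of a difference in dim genes depends on the pseudocount, so Kap or Hbe1 have no firm fold.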

Other observations

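Many of the genes with a large difference lay outside the lists: 252 of the 846 genes that rose and 171 of the 796 that fell were list members. The genes below are in no list and were chosen after their values were seen, so they are given as values, from the same limma fit. Aass, which starts lysine breakdown, gave 536 ± 62.9 at E18 (SD, n = 4) and 45146 ± 5527 at Wk4 (SD, n = 3), a difference of 5.81 ± 0.21 (SE). Slc27a2, a fatty acid carrier and acyl-CoA synthetase, differed by 5.75, the glucosidase Gba3 by 5.59, the aldehyde reductase Akr7a3 by 5.46 and the aminotransferase Aadat by 5.07. The nuclease Dnase1 differed by 5.36, antithrombin, Serpinc1, by 5.33 and the protease Napsa by 5.18. The aquaporins Aqp7 (4.71) and Aqp11 (3.56) and the potassium channel Kcnj15 (4.47) rose. Nox4, a NADPH oxidase prominent in kidney, rose by 3.88 and xanthine dehydrogenase, Xdh, by 4.22.

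Among genes that fell outside the lists, Mycn, a growth-promoting transcription factor, gave 8611 ± 1083 at E18 (SD, n = 4) and 582 ± 217 at Wk4 (SD, n = 3), a difference of -3.40 ± 0.19 (SE). The nuclear lamina gene Lmnb1 differed by -4.10 and the replication clamp-binding Pclaf by -4.06. The retinoic acid-binding proteins Crabp2 (-3.96) and Crabp1 (-3.26) fell, as did the planar polarity genes Vangl2 (-3.12) and Ptk7 (-3.07). Tubulins Tubb6 (-3.55), Tubb5 (-2.75) and Tubb2b (-2.68) fell too, but are alike in sequence and may share signal. The proteoglycan Gpc3, which restrains fetal growth, differed by -3.15, the BMP regulator Bmper by -4.01 and the transcription factor Sox11 by -3.04.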
